A study of Mus musculus with 6 samples.

Results

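Genes of fatty acid uptake, activation, carnitine transport and beta oxidation, with the nuclear receptors and coactivators that act on them, were followed in hearts of mice lacking the microRNA gene miR-1-2. The set was a list of 36 genes taken by symbol from the annotation of the array, and where several probe sets named a gene, the brightest one, by its mean of 6 arrays, stood for it. Of the 36 genes, 33 were measured by a probe set that named that gene alone, out of 18193 genes on the array. Acsl1 and Ucp2 were not analysed here, and neither was Cpt1b, whose 1 probe set also named other genes. Of the measured genes, 24 had several probe sets, and 68 probe sets named a member in all.

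The series compared whole hearts of wild-type mice and of miR-1-2 knockout mice, both at postnatal day 10, with 3 hearts per genotype and 1 array per heart. The labels give no strain, sex, litter or design of the deleted allele, and no treatment. The microRNA miR-1, abundant in heart and skeletal muscle, is made from this locus and from another one in the genome. The arrays do not measure miR-1, so the labels could not be checked by the deleted gene. The comparison asked which heart transcripts differ in level when miR-1-2 is lost.

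The heart after birth moves from glucose and lactate towards long-chain fatty acids as its main fuel. Fatty acids are freed from lipoproteins, taken across the membrane, joined to coenzyme A, carried into mitochondria as carnitine esters and shortened by beta oxidation, whose electrons pass through the electron-transferring flavoprotein to the respiratory chain. The nuclear receptors PPAR-alpha and the estrogen-related receptors, with the coactivators encoded by Ppargc1a and Ppargc1b, are known to drive the genes of this path.

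All values are log2 expression values made by RMA, in which a difference of 1 is a doubling, and array medians lay between 6.03 and 6.11. The number of arrays limits the precision, and levels of different genes were not set against each other because probes differ in brightness. In bulk tissue, fewer cells of a type and less RNA per cell cannot be told apart. The cardiomyocyte markers (10 of 10 measured, among them Myh6, Actc1 and Tnnt2) were bright on all arrays, with summed linear signals of 156000 to 157000 in wild type and 154000 to 156000 in knockout. Knockout replicates 1 and 3 were low in Xist (7.55 and 7.57) and the other arrays were high (11.91 to 12.19), so sex was not balanced between the groups. The brown fat gene Ucp1 stood at 9.45 and 10.39 in the first replicates of wild type and knockout and at 5.22 to 6.68 elsewhere. Of the myeloid markers 7 of 8 had lower means in knockout (median -0.23), with a summed linear signal of 1480 to 1910 in wild type and 1290 to 1520 in knockout. The smooth muscle and pericyte markers summed to 12400 to 13500 and to 15000 to 15800, with 4 of 6 higher and a median difference of 0.048, and Acta2, the brightest of them, had the largest difference on that list (0.42). None of these markers passed over all genes.

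Fatty acid genes differed little between the genotypes. Knockout hearts had higher values for 17 of the 33 measured members and lower values for 16, with a median log2 difference of 0.0070 (-0.024 after a further quantile normalization) against 0.00048 over all genes. The size of the difference had a median of 0.0562 over the members and 0.0619 over all genes. It was smaller than 0.25 for 32 of the 33 members. The share of all genes under 0.25 was not taken, so that count does not set the members apart from other genes. With limma and Benjamini-Hochberg adjustment over all genes, 0 members passed an adjusted p of 0.05 (adjusted p = 1.00 for each), where 0.00% of all genes passed. With the replicate number as a block, 0 members and 0.0715% of all genes passed, and the lowest adjusted p of a member was 0.531, for Cpt1a. The 95% interval of the difference lay within 0.5 log2 units of 0 (1.41-fold either way) for all 33 measured members and for 95.9% of all genes. That limit was chosen after the values were seen, and each interval covers its own gene only.

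An unadjusted p under 0.05 was reached by 2 members, Slc27a1 and Cpt1a (6.06% of members), against 4.10% of all genes. With the replicate number as a block the same count was 2 (6.06%) against 7.29% of all genes. The values of the genotypes did not overlap for 2 members higher in knockout, Slc27a1 and Ppargc1b, where 4.57% of all genes did so. They did not overlap for 3 members lower in knockout, Lpl, Acadl and Etfdh, against 4.28% of all genes. These shares rest on few genes. After a further quantile normalization only Lpl, Cpt1a and Acadl were apart among the members (9.09%, against 10.4% of all genes), so Slc27a1, Ppargc1b and Etfdh overlapped there. Without wild-type replicate 1, wild-type replicate 3, knockout replicate 2 or knockout replicate 3 the count of members with an unadjusted p under 0.05 was 1 (3.03%), against 2.37%, 2.68%, 3.94% and 2.18% of all genes in that order. Without wild-type replicate 2 it was 0, against 3.02% of all genes. Without knockout replicate 1 it was 8 (24.2%), when 17.5% of all genes also had such a p. The count of members whose groups did not overlap was 5 with all arrays, 11 without wild-type replicate 3 and to 14 without knockout replicate 1, when 15.7% and 38.7% of all genes did not overlap.

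**Figure D1:**
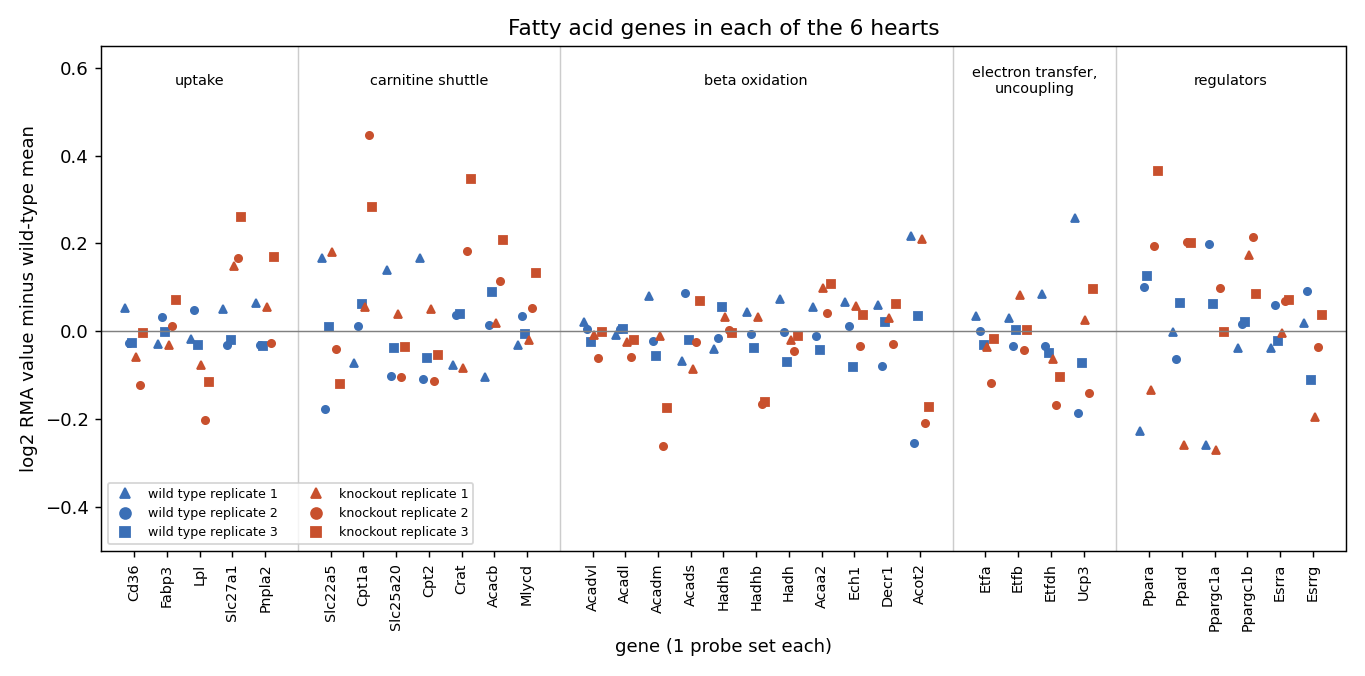
Each measured member is shown by its 6 arrays, as the log2 RMA value minus the wild-type mean of that gene, with genes grouped by role on the horizontal axis, genotype by colour and replicate number by symbol. The genotypes are apart for 5 of the 33 genes, and the first replicates (triangles) of both genotypes lie together at one end for genes such as Acot2, Ppara and Ppargc1a.

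**Figure D2:**
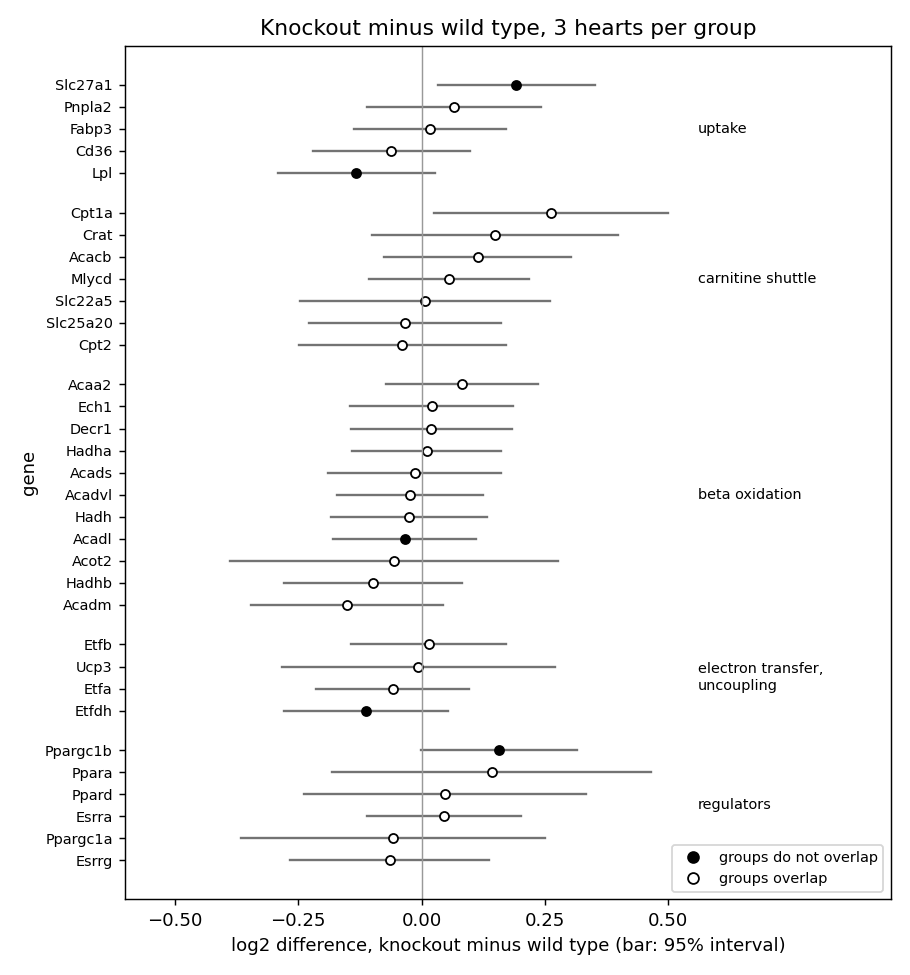
The log2 difference of knockout minus wild type is plotted for each measured member with its 95% interval from limma, grouped by role. Filled points mark the 5 genes whose genotypes did not overlap, and all intervals lie between -0.5 and 0.5.

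Uptake genes, 5 of 6 measured, showed 3 higher and 2 lower values in knockout, with a median difference of 0.017. Slc27a1 encodes a fatty acid transport protein of muscle and fat. Its level was 8.55, 8.47 and 8.48 in wild-type replicates 1 to 3 and 8.65, 8.67 and 8.76 in knockout. Every knockout heart lay above every wild-type heart, and the mean was 8.69 ± 0.060 (SD, n = 3) against 8.50 ± 0.044. The difference was 0.19 ± 0.070 (SE), or 1.14-fold, with a 95% interval from 0.034 to 0.35, and did not pass over all genes (limma adjusted p = 1.00, and 0.621 with the block). With array weights, a fit that gave knockout replicate 3 a weight of 4.74 and knockout replicate 1 a weight of 0.222, its difference of 0.26 passed (adjusted p = 0.0439). It was the only one of the 33 members to pass in that fit, which called 2.29% of all genes, and its adjusted p over the alternatives ran from 0.0439 to 1.00. A dimmer Slc27a1 probe set differed by 0.061 and its groups overlapped.

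Lpl encodes lipoprotein lipase, which frees fatty acids from lipoproteins at the capillary wall. It stood at 12.68, 12.75 and 12.67 in wild type and at 12.62, 12.50 and 12.59 in knockout. Every knockout value lay below every wild-type value, by a mean of -0.13 ± 0.070 (SE). This is a 1.10-fold difference whose 95% interval ran from -0.29 to 0.027. A dimmer Lpl probe set differed by -0.095 and its groups overlapped. Macrophages also express Lpl and Cd36, and the myeloid markers had lower means in knockout too. Their part in these differences was not tested.

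Cd36 encodes the main fatty acid translocase of the heart muscle cell. Its level was 11.99, 11.91 and 11.91 in wild type and 11.88, 11.81 and 11.93 in knockout. The groups overlapped through knockout replicate 3, and the difference was -0.061 ± 0.070 (SE). All 3 Cd36 probe sets gave lower means in knockout, from -0.061 to -0.19.

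Pnpla2, which encodes the lipase that opens stored triglyceride, stood at 9.74, 9.64 and 9.64 in wild type and at 9.73, 9.65 and 9.84 in knockout. The groups overlapped (difference 0.066), and the other Pnpla2 probe set differed by -0.15. Fabp3, which encodes the fatty acid binding protein of heart cytosol, lay between 14.03 and 14.13 on all arrays and differed by 0.017.

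The carnitine shuttle and its malonyl-CoA control, 7 of 8 measured, included Cpt1a, the member with the highest difference. The median difference was 0.055, with 5 genes higher and 2 lower. Cpt1a encodes the carnitine palmitoyltransferase of liver and of fetal and newborn heart, which couples fatty acids to carnitine at the outer mitochondrial membrane. Its level was 8.83, 8.92 and 8.97 in wild type and 8.96, 9.35 and 9.19 in knockout. Knockout replicate 1 lay just below the highest wild-type heart and the other knockout hearts lay above all of them. The mean difference was 0.26 ± 0.10 (SE), or 1.20-fold, with a 95% interval from 0.026 to 0.50. It was higher in knockout in 3 of 3 replicate numbers, and did not pass over all genes (limma adjusted p = 1.00, and 0.531 with the block). The labels do not pair the mice by replicate number, so here and below such a count is not a paired result.

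The other Cpt1a probe sets differed by 0.33 and 0.30, and in both knockout replicate 1 was the lowest array while knockout replicates 2 and 3 were the highest. In the high-Xist knockout heart the Cpt1a level exceeded the wild-type mean by 0.45, and the mean of the low-Xist knockout hearts exceeded it by 0.17. With replicates 2 and 3 only, the difference was 0.33 (adjusted p = 0.273). With the Xist level as a covariate the difference was 0.44 ± 0.12 (SE, adjusted p = 0.625). All wild-type hearts were high in Xist, so that value rests mainly on the same high-Xist knockout heart and is no separate estimate.

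Crat encodes carnitine acetyltransferase, which buffers acetyl-CoA in mitochondria. It stood at 9.51, 9.62 and 9.62 in wild type and at 9.50, 9.77 and 9.93 in knockout. Knockout replicate 1 was the lowest of all arrays, and the difference of 0.15 ± 0.11 (SE) became 0.26 without that array. The other 2 Crat probe sets differed by 0.075 and 0.029.

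Acacb encodes the acetyl-CoA carboxylase that makes malonyl-CoA, the inhibitor of the first carnitine step, and Mlycd encodes the decarboxylase that removes it. Acacb stood at 8.93, 9.05 and 9.12 in wild type and at 9.05, 9.15 and 9.24 in knockout, higher in 3 of 3 replicate numbers with overlapping groups (0.11 ± 0.083, SE). Mlycd stood at 8.48, 8.55 and 8.51 in wild type and at 8.49, 8.57 and 8.65 in knockout, with a difference of 0.055. The genes that make and remove malonyl-CoA thus both had higher means in knockout, with 95% intervals that included 0.

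The carnitine carriers and the inner transferase had small differences between the genotypes. Slc25a20, the carnitine-acylcarnitine carrier, differed by -0.034, Cpt2, the inner carnitine palmitoyltransferase, by -0.039, and Slc22a5, the plasma membrane carnitine transporter, by 0.0070. In the probe sets that stood for these 3 genes, the first replicates of both genotypes were the highest arrays.

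Beta oxidation enzymes, 11 of 11 measured, showed 4 higher and 7 lower values, with a median of -0.024 and a range from -0.15 to 0.082. Acadm encodes the medium-chain acyl-CoA dehydrogenase and had the lowest difference of any member. Its level was 12.76, 12.65 and 12.62 in wild type and 12.67, 12.42 and 12.50 in knockout. Knockout replicate 1 lay within the wild-type range and the others below it. The difference was -0.15 ± 0.085 (SE), or 1.11-fold lower, with a 95% interval from -0.35 to 0.044, lower in 3 of 3 replicate numbers (limma adjusted p = 1.00, and 0.708 with the block). Without knockout replicate 1 it was -0.22 (adjusted p = 0.220).

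Acadl, the long-chain acyl-CoA dehydrogenase, stood at 12.71, 12.73 and 12.73 in wild type and at 12.70, 12.67 and 12.70 in knockout. The groups were apart, and yet the difference was only -0.034 ± 0.064 (SE), since the 3 wild-type hearts lay within an SD of 0.0086. The very-long-chain enzyme Acadvl differed by -0.024 and the short-chain enzyme Acads by -0.014. The 95% intervals of Acadl, Acadvl and Acads did not reach beyond -0.19 or 0.16.

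Hadha and Hadhb encode the subunits of the mitochondrial trifunctional protein, which carries out the later steps for long chains. Hadhb stood at 12.81, 12.76 and 12.73 in wild type and at 12.80, 12.60 and 12.60 in knockout, with a difference of -0.099 ± 0.079 (SE) and all 3 probe sets lower in knockout. Hadha differed by 0.010. The subunits thus had different signs within overlapping intervals, and the difference between them was not tested.

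Acaa2, the medium-chain thiolase, stood at 12.37, 12.30 and 12.27 in wild type and at 12.41, 12.36 and 12.42 in knockout, higher in 3 of 3 replicate numbers, with overlapping groups, a difference of 0.082 and all 3 probe sets higher. Hadh, the short-chain hydroxyacyl-CoA dehydrogenase, differed by -0.025. Ech1 and Decr1, auxiliary enzymes for unsaturated chains, differed by 0.020 each, and the dimmer Decr1 probe set by -0.14. Acot2, a mitochondrial acyl-CoA thioesterase, differed by -0.056, with 11.25 and 11.24 in the first replicates and 10.78 to 11.07 elsewhere. A dimmer Acot2 probe set stood at 7.86, 7.65 and 7.54 in wild type and at 7.58, 7.39 and 7.39 in knockout, a difference of -0.23 with overlapping groups. Acot2 has close relatives in the genome, and signal from them cannot be told apart here.

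Electron transfer and uncoupling genes, 4 of 5 measured, had a median of -0.032, with 1 higher and 3 lower. Etfdh encodes the oxidoreductase that passes electrons from the flavoprotein to ubiquinone. It stood at 11.71, 11.60 and 11.58 in wild type and at 11.57, 11.46 and 11.53 in knockout. All knockout hearts lay below all wild-type hearts, and the difference was -0.11 ± 0.073 (SE), with a 95% interval from -0.28 to 0.053.

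The flavoprotein subunits were closer to level. Etfa stood at 11.97, 11.93 and 11.90 in wild type and at 11.90, 11.81 and 11.92 in knockout, a difference of -0.058. Etfb stood at 12.04, 11.97 and 12.01 and at 12.09, 11.97 and 12.01, a difference of 0.014. Ucp3, a mitochondrial carrier of muscle that responds to fatty acids, stood at 7.99, 7.54 and 7.66 and at 7.76, 7.59 and 7.83, a difference of -0.0062. Wild-type replicate 1 held the highest Ucp3 value, and without it the difference was 0.12. A dimmer Ucp3 probe set differed by -0.21.

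Regulators, 6 of 6 measured, had a median difference of 0.047, with 4 higher and 2 lower. Ppargc1b encodes the coactivator PGC-1 beta. Its level was 9.84, 9.90 and 9.90 in wild type and 10.05, 10.09 and 9.97 in knockout. Every knockout heart lay above every wild-type heart, with a mean of 10.04 ± 0.066 (SD, n = 3) against 9.88 ± 0.032. The difference was 0.16 ± 0.069 (SE), or 1.12-fold, with a 95% interval from -0.00049 to 0.32 (limma adjusted p = 1.00, and 0.693 with the block). In the high-Xist knockout heart it was 0.21 above the wild-type mean and in the low-Xist hearts 0.13. Ppargc1b had a single probe set.

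Ppargc1a, which encodes the related coactivator PGC-1 alpha, stood at 8.47, 8.93 and 8.79 in wild type and at 8.46, 8.83 and 8.73 in knockout. The first replicate of each genotype was lowest, and the difference was -0.058 ± 0.13 (SE). Of its 5 probe sets 2 gave higher and 3 lower means in knockout.

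Ppara, the receptor that is activated by fatty acids, stood at 7.57, 7.90 and 7.92 in wild type and at 7.66, 7.99 and 8.16 in knockout. It was higher in 3 of 3 replicate numbers by 0.14 ± 0.14 (SE), with overlapping groups and a 95% interval from -0.18 to 0.46, and was 0.28 without knockout replicate 1. Of its other probe sets 1 differed by 0.018 and 1 by -0.16. Esrra, the estrogen-related receptor alpha, stood at 8.89, 8.99 and 8.91 and at 8.93, 8.998 and 8.999, a difference of 0.046. Esrrg, its gamma relative, stood at 7.81, 7.89 and 7.68 and at 7.60, 7.76 and 7.83, a difference of -0.065 with overlapping groups. The 2 dimmer Esrrg probe sets were higher in knockout, by 0.14 with the groups apart and by 0.061 with overlapping groups. Ppard, the delta receptor, differed by 0.048, with knockout replicate 1 lowest at 6.25 and the other knockout hearts highest at 6.71.

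**Figure D3:**
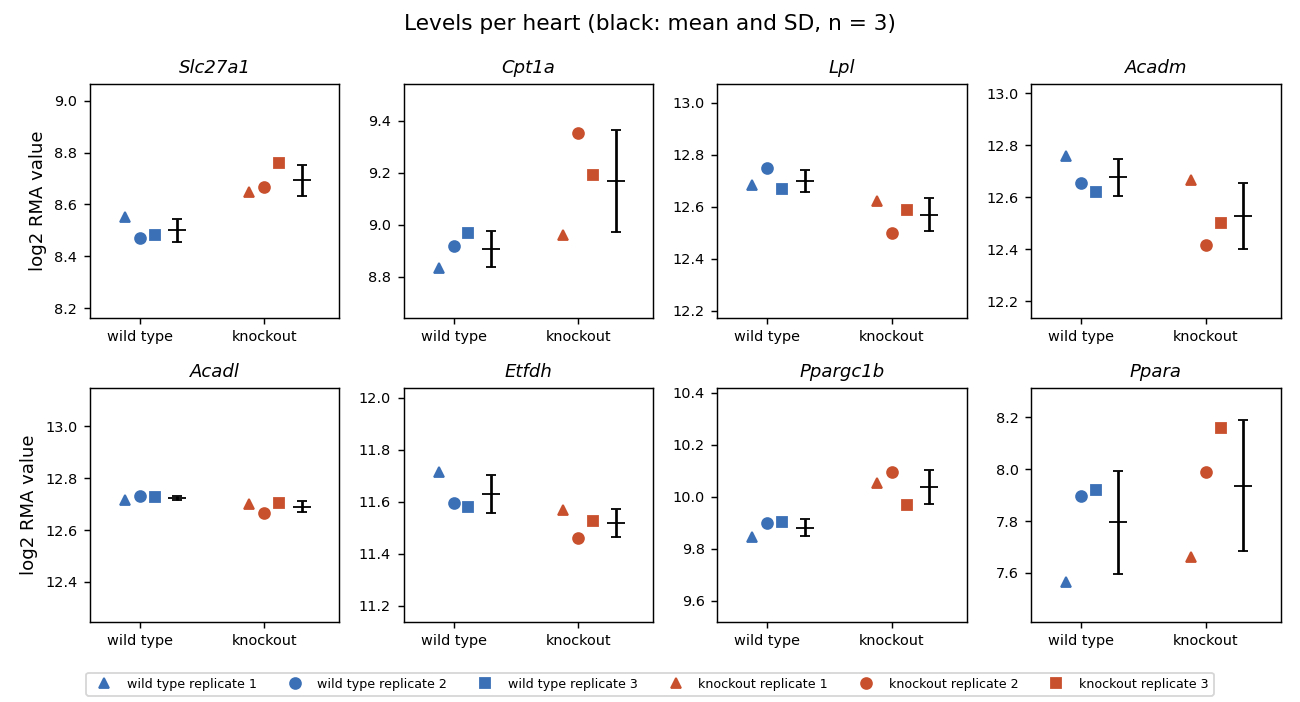
Log2 RMA values of 8 members are plotted per heart for wild type and knockout, with the mean and SD (n = 3) in black, and every panel spans the same range of 0.9 log2 units. Slc27a1, Lpl, Acadl, Etfdh and Ppargc1b are apart by genotype, while for Cpt1a, Acadm and Ppara knockout replicate 1 lies within the wild-type range.

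Of the 24 members with several probe sets, 15 had all of them in 1 direction and 9 had both directions (Acacb, Decr1, Esrrg, Etfdh, Hadh, Pnpla2, Ppara, Ppard and Ppargc1a). Both counts rest partly on dim probe sets below the array medians. Among the 9, wild-type means of such probe sets were 3.86 for Etfdh and 4.65 for Acacb. Among the 15, they were 4.24 for Acadl and 4.87 for Cpt2. In a limma fit over all 45037 probe sets, 0 of the 68 member probe sets passed an adjusted p of 0.05, with or without the replicate block (lowest adjusted p = 0.656 with it). Of all probe sets 0.00666% passed without the block and 0.0444% with it. An unadjusted p under 0.05 was reached by 3 of them (4.41%), of Slc27a1, Cpt1a and Acot2, against 3.94% of all probe sets.

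The receptors among these regulators bind DNA at sites built on the core AGGTCA, and the estrogen-related receptors at the longer TNAAGGTCA. Both were searched on both strands of RefSeq promoter windows of GRCm38.p6, 250 bases before to 50 after each gene start. The longer motif holds the shorter one. Windows were found for 30 of the 36 genes, 36 windows in all. AGGTCA was in 6 of them, those of Acadm, Cd36, Acacb, Ucp3, Acadvl and Cpt1a. That is 16.7% of the members' windows, against 16.3% of 32851 windows of all genes. TNAAGGTCA was in 0 of the members' windows and in 1.28% of all. A match is a description and not a site of binding, and no match speaks only of these windows.

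The stretches around AGGTCA, in capitals as it or as its reverse complement TGACCT, are shown for Cpt1a and Acadm, the members with the highest and the lowest difference, and for Ucp3, whose window holds it at 2 places. Each is read 5′ to 3′ on the strand of the gene. They lie at chr19:3323167-3323252 (plus strand) for Cpt1a, chr3:153944847-153944893 (minus strand) for Acadm, and chr7:100472802-100472887 and chr7:100472907-100472990 (plus strand) for Ucp3.
Cpt1a: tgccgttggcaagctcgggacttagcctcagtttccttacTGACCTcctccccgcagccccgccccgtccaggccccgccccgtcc
Acadm: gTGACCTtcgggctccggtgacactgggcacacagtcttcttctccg
Ucp3, upstream: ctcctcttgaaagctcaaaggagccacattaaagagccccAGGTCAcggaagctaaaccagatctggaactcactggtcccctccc
Ucp3, near the start: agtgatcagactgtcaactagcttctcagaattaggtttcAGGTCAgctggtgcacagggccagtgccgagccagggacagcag

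The motif began 94 bases before the gene start in Cpt1a, 249 bases before it in Acadm, and 149 and 44 bases before it in Ucp3. Genes with the motif did not share a direction. Cpt1a and Acacb had higher means in knockout (0.26 and 0.11), and Acadm, Cd36, Acadvl and Ucp3 had lower means (-0.15, -0.061, -0.024 and -0.0062).

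Members varied more with the replicate number than with the genotype in some genes. The first replicates of both genotypes lay above all other arrays for 8 of 33 members (24.2%), against 15.8% of all genes. These were Slc22a5, Slc25a20, Cpt2, Acadm, Hadhb, Ech1, Acot2 and Etfb. The first replicates lay below all others for 6 members (18.2%), against 19.5% of all genes. These were Fabp3, Crat, Mlycd, Acads, Ppara and Ppargc1a. The gap of the first replicate to the mean of the others was 0.33 in wild type and 0.40 in knockout for Acot2, 0.25 and 0.26 for Slc22a5, and 0.25 and 0.13 for Cpt2. It was -0.34 and -0.41 for Ppara and -0.39 and -0.32 for Ppargc1a. By the probe set that stood for each gene, Slc22a5, Slc25a20 and Cpt2 were at their highest in these hearts. Ppara and Ppargc1a were at their lowest, and so was Crat of the carnitine shuttle. Each of these genes also had a dimmer probe set that did not place both first replicates at that end. For Crat, neither dimmer probe set had the first replicates lowest. In 1 of them they stood at 9.62 in wild type and 9.71 in knockout, with wild-type replicate 3 at 9.56. A dimmer Slc25a20 probe set stood at 9.55 in knockout replicate 1 and 9.57 in knockout replicate 2.

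Across the 33 members the gaps of the genotypes had a Pearson correlation of 0.74, and across all 18193 genes of 0.544. The points of each correlation share the same 6 arrays, and genes are not independent replicates. Of the brown fat markers, 3 of 8 were highest in both first replicates (Ucp1, Cidea and Otop1), while Prdm16, a brown fat regulator on the same list, was lowest in both (gaps of -0.33 and -0.37). The first replicates were also highest for 4 of 6 measured markers of fat of any kind (Adipoq, Retn, Cidec and Pparg). The summed linear signal of the brown fat markers was 829 to 1800 in wild type and 989 to 2570 in knockout, with the first replicates at the top of both ranges. Their part in the levels of the fatty acid genes was not tested. With replicates 2 and 3 only, the median difference of the members was 0.0085, beside 0.0070 with all arrays.

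**Figure D4:**
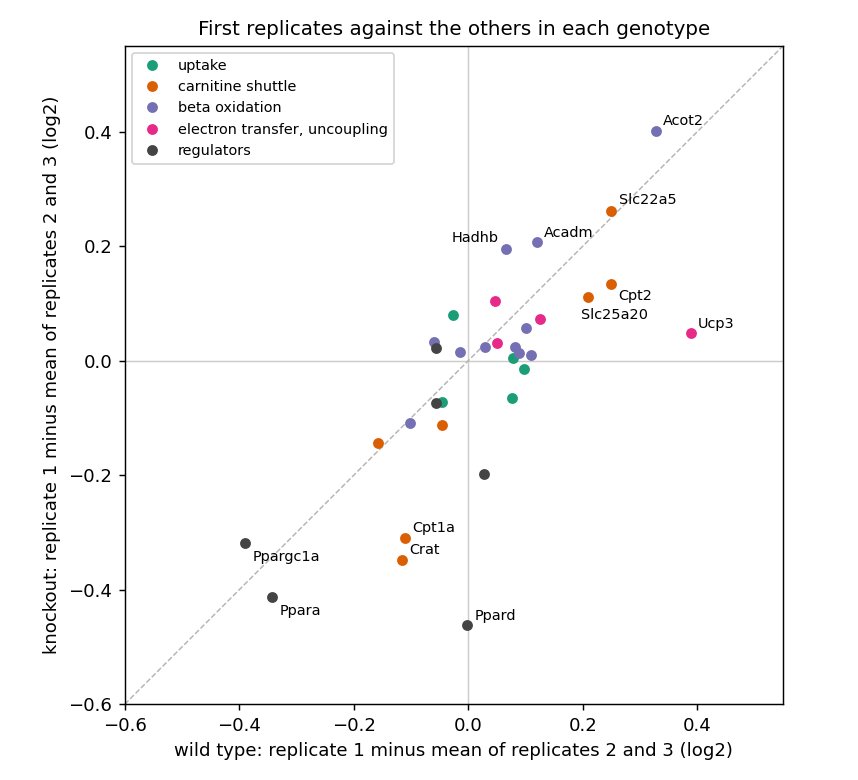
Each point is a member, placed by how far replicate 1 lies from the mean of replicates 2 and 3 in wild type (horizontal) and in knockout (vertical), in log2 units, coloured by role, with a dashed line where both gaps are equal. Acot2, Slc22a5 and Cpt2 lie at the upper right, Ppara and Ppargc1a at the lower left, and Ucp3 and Ppard depart in 1 genotype only.

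Other genes of the pathway, from a list of 87 of which 78 were measured, were read in the same fit. In knockout 51 were higher and 27 lower, with a median of 0.038. Over all genes 0 passed, without the replicate block (lowest adjusted p = 0.596) or with it (0.109), and 7 had an unadjusted p under 0.05 (8.97%), beside 4.10% of all genes. Of these 7, 3 were higher and 4 lower in knockout. The genotypes did not overlap for 12 of the 78 with higher values in knockout and for 5 with lower values. The matching shares of the whole array were 4.57% and 4.28%. Only genes with an unadjusted p under 0.05 are described below, a choice that favours groups that are apart. Others that were apart, such as Plin2 and Lipe (higher) and Tfam (lower), are not described.

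Dbi, the acyl-CoA binding protein, was at 11.09, 11.01 and 11.03 in wild type and at 11.15, 11.29 and 11.32 in knockout (0.21). Crot, the peroxisomal carnitine octanoyltransferase, was at 7.79, 7.71 and 7.77 and at 7.86, 7.99 and 8.05 (0.21). In both the groups were apart. Acot1, a cytosolic thioesterase and close relative of Acot2, was 0.35 higher in the mean, but knockout replicate 1 (8.02) lay within the wild-type range of 7.97 to 8.08.

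Among those with an unadjusted p under 0.05, the genes with lower means were Acss1, Rxrg, Lpin1 and Pdk4. Acss1, a mitochondrial acetyl-CoA synthetase, was at 9.62, 9.65 and 9.63 in wild type and at 9.27, 9.04 and 9.15 in knockout (-0.48, adjusted p = 0.109 with the block). Rxrg, the gamma form of the partner receptor of the PPARs, was at 7.89, 7.57 and 7.62 and at 7.34, 7.33 and 7.11 (-0.44). Lpin1, a phosphatidate phosphatase that also acts with PGC-1 alpha, was at 8.44, 8.32 and 8.28 and at 8.17, 7.97 and 8.0002 (-0.30). Pdk4, the kinase that turns off pyruvate dehydrogenase when fat is burned, was at 12.07, 11.30 and 11.40 and at 10.96, 10.70 and 10.95 (-0.72). In all 4 genes every knockout heart lay below every wild-type heart, and none passed over all genes. Acss1 and Pdk4 already stood out in earlier results of these data when the list was written.

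By list, 10 of 14 measured genes of lipid uptake, droplets and storage were higher (median 0.057), 7 of 11 of activation and thioesterases (0.055), 18 of 25 of mitochondrial and peroxisomal oxidation (0.041), 0 of 2 of ketone bodies (-0.055) and 16 of 26 of other regulators (0.028).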

How the data were processed

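Total RNA of 6 hearts was hybridised to Affymetrix mouse arrays, 1 per heart, and the submitters' processing notes name GCOS 1.4. Log2 values were deposited, which the authors computed by RMA with affy, a Bioconductor package, per the series' design text. RMA forces the single probes of all arrays to one distribution, which largely removes a change shared by most genes. It also compresses differences of dim probes. The values of probe sets were not at one distribution, with array medians from 6.03 to 6.11. Their R and affy versions are not stated.

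Control probe sets (64) were left out of the fits, which left 45037. Symbols of the platform annotation were updated by gene identifier through RefSeq (GRCm38.p6): 34945 probe sets named 1 gene, 932 several and 9160 none. Replicates are separate mice per the design text. The test was limma's (version 3.58.1, R 4.3.3; lmFit and eBayes, no block), run over all 18193 genes and, for probe sets, all 45037, with Benjamini-Hochberg adjustment and a threshold of 0.05. The script was tested on simulated data.

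Same-numbered arrays deviated together from their group means (correlation across genes 0.54, 0.18 and 0.13 for replicates 1 to 3), so the fit with the replicate number as a block is given too. Crossed pairs of replicates 2 and 3 correlated more than the same-numbered ones, at 0.35 and 0.30. Only the first replicates thus went together by number more than across numbers. The members and gene lists were chosen with earlier results of these data known. Per-array values were given for the 4 members of each role with the smallest p, for members that passed any fit and for Ppara, Ppargc1a, Cpt1a, Acadm, Cd36 and Ucp3. Of the other pathway genes, those with an unadjusted p under 0.05 were named, up to 3 a list. Motifs were searched in RefSeq promoter windows. Alternatives changed the arrays used, the choice of probe set, the scaling, the variance model and covariates.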

Additional observations from a re-analysis of the deposited data

How the results depend on the processing

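Each member was refitted under 22 alternatives. Of 725 member values 1 passed over all genes, and 17 of 33 members kept their sign throughout. The other 16 changed sign in 75 values, none of them called. The value that passed was Slc27a1 with array weights, where 1 member and 416 genes passed, against 0 of each in the fit reported. With the replicate block 13 genes passed and 0 members. That fit gave 11 genes without the arrays numbered 1 and 36 without those numbered 2. Other counts of genes were 15 with the first replicates as a batch term, 3 with the mean of probe sets, 1 with replicates 2 and 3 only, 1 with the probe set of highest variance, and 0 to 4 with 1 array left out. The count of members with an unadjusted p under 0.05 (2) was 10 with array weights (26.3% of all genes), 5 with replicates 2 and 3 only (13.1%), 4 with the batch term (9.25%), 4 with trend and robust variance (3.98%), and 1 with the mean of probe sets (4.47%), the probe set of highest variance (3.67%) or a further quantile normalization (4.92%). In the replicate block without replicate 1, 2 or 3 it was 4, 0 and 1 (11%, 6.78% and 3.29% of all genes), and with 1 array left out 0 to 8. The count of members with groups apart (5) was 16 with replicates 2 and 3 only (48.5%, against 46.6% of all genes), 20 with high-Xist arrays only (60.6% against 66.5%), 3 with the probe set of highest variance (9.09% against 8.30%), 3 with quantile normalization (9.09% against 10.4%), and 6 to 14 with 1 array left out, where fewer arrays leave less room for overlap. The high-Xist fit holds 1 knockout heart, assumed to vary like wild type. The fit with the Xist covariate rests mainly on that heart too. Leaving out knockout replicate 2 makes genotype and Xist level coincide. The median member difference was -0.033 with the Xist level as a covariate, -0.034 with high-Xist arrays only and -0.024 with quantile normalization. The uptake median was -0.040 with the mean of probe sets, -0.095 with the probe set of highest variance and -0.072 without ambiguous probe sets. The shuttle median was 0.11 with array weights, and the electron transfer and uncoupling median -0.13 with the Xist covariate and with high-Xist arrays only. The settings behind the uptake shifts brought in other probe sets, among them the dimmer one of Pnpla2 (-0.15). The cause of the other shifts was not tested. Mlycd had no value without ambiguous probe sets.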
